A study of Homo sapiens with 12 samples.

Results

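Rotenone and digoxin are plant products that stop different machines of the cell, and the transcripts of MDA-MB-231 cells were compared directly between them. The comparison used the 3 arrays titled with rotenone and the 3 titled with digoxin, 6 of the 12 arrays of the series, and no vehicle array entered the test. MDA-MB-231 is a long-established human line from a breast cancer without hormone receptors or HER2, and it has mesenchymal features. All groups were grown in DMEM with 10% serum and exposed for 24 h to the solvent DMSO or to a compound, and the remaining arrays (manassantin, the compound of the study's title) were not used here. The sample titles say digoxin, whereas the series' design text says digitoxin, a close relative that lacks 1 hydroxyl group. The titles' name is used throughout, and which of the cardiac glycosides the cells received is not settled by the sources used here. Doses, the oxygen level and the number of separate cultures behind the 3 arrays of a group are not given either, so the p-values reflect nothing but the scatter among these arrays, which may be technical.

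Each gene was represented by its brightest probe set, the set of short probes on the array that reports 1 transcript or several of a gene, among the 19064 of 22277 probe sets annotated to exactly 1 symbol. This gave 11963 genes. Values are log2 intensities, on which a difference of 1 is a 2-fold difference, and an intensity has no transcript count behind it. Differences were tested across all genes with limma, whose Benjamini-Hochberg adjusted p-values are the ones printed below, and a gene is called where the adjusted p is under 0.05. Standard errors (SE) are those of the limma model and standard deviations (SD) are over the 3 arrays of a group. Genes with a mean over the 6 arrays below 5.72, the 40th percentile, are described as dim. The labelled cell type was checked against its markers. All 11 measured genes of a list for mesenchymal breast cancer cells lay above the 40th percentile and 7 above the 90th, among them VIM. That list also held EGFR and the epithelial keratin KRT18, at percentiles 88.4 and 97.8, which do not mark mesenchymal cells. KRT18 is counted among the 7. Of 12 luminal markers 8 lay above the 40th percentile and 0 above the 90th. Of 10 leukocyte markers and of 12 endothelial and stromal markers, 1 each lay above the 40th percentile.

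Rotenone binds complex I of the respiratory chain and stops it from passing electrons from NADH to ubiquinone. It also binds tubulin and blocks the assembly of microtubules, which the mitotic spindle needs. Digoxin and its relatives bind the sodium pump, the ATPase that exports sodium and imports potassium. In pump-inhibited human cells sodium accumulates and potassium is lost, calcium can rise through sodium-calcium exchange, and protein synthesis, which needs potassium, slows. Cardiac glycosides and complex I inhibitors have each been described to lower the hypoxia-inducible factor HIF-1 in hypoxic cells. Comparing them side by side shows which transcripts set the pump blocker apart from the complex I blocker in the same cells, at doses that the sources used here do not give, so that sizes of response cannot be matched for dose.

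The promoters below belong to genes that head the groups described further on. They are shown because they carry short elements through which the textbook regulators of those groups bind, and so let the differences be read beside the DNA. Sequences are from the RefSeq promoter table (GRCh38.p14), 5′ to 3′ on the strand of the gene, and only bases upstream of the annotated start are given, with the start itself as the first base after -1. Capitals mark matches to a motif found by a text search of both strands. EGR1 (chromosome 5, plus strand) has a pair of serum response elements of the CArG type at -105 to -96 and -83 to -74. CXCL8 has an AP-1 motif (TGANTCA) at -137 to -131 and a TATA box (TATAAA) at -31 to -26. IL6 and CXCL1 each have 1 NF-kB motif (GGGNNTTTCC), at -73 to -64 and -79 to -70. The CXCL8 stretch has no match to that pattern but holds tggaatttcc, which differs from it only in the first base. MAFF and PPP1R15A each have 1 full cAMP response element (TGACGTCA), at -54 to -47 and -58 to -51. IFIT1 has an interferon-stimulated response element (GAAANNGAAA, read here on the other strand) at -116 to -107 and another at -103 to -94, and IFIT3 has 1 at -122 to -113 in the stretch shown and another upstream of it at -156 to -147. E2F1 has an E2F motif (TTTGGCGC) at -20 to -13.
EGR1 chr5:138465354-138465423: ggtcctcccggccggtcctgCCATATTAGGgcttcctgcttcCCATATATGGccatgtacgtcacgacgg
CXCL8 chr4:73740419-73740568: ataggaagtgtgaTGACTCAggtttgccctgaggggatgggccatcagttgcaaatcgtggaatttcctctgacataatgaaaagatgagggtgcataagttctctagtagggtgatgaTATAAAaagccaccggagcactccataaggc
IL6 chr7:22727110-22727199: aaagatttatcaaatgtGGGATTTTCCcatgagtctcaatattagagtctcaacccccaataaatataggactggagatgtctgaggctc
CXCL1 chr4:73869283-73869392: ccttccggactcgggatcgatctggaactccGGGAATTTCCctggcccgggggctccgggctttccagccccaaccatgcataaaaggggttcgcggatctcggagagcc
MAFF chr22:38201884-38201993: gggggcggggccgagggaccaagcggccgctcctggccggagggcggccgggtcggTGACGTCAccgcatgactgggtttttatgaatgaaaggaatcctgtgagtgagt
PPP1R15A chr19:48872311-48872420: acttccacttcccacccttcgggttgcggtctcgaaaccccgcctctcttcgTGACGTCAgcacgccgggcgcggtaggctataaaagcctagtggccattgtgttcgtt
IFIT1 chr10:89392493-89392542: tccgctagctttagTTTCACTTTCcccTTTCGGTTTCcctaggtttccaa
IFIT3 chr10:89327867-89327936: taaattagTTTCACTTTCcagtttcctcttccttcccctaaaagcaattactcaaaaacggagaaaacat
E2F1 (minus strand) chr20:33686386-33686445: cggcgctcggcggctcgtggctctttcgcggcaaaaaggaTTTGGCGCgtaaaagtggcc

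The compounds left very different transcript profiles. Of 11963 genes, 5870 (49.1%) were called different, 2997 (25.1%) higher with rotenone and 2873 (24%) higher with digoxin, and 6695 had an unadjusted p under 0.05. The large differences were less even. A difference of 2-fold or more was called for 427 genes (3.57%) higher with rotenone and for 141 (1.18%) higher with digoxin, and 35 and 11 genes reached 4-fold. The vehicle arrays tell which compound stood away from untreated cells. For 427 of the 427 genes at least 2-fold higher with rotenone the DMSO mean lay nearer to the rotenone mean than to the digoxin mean, and for 140 of the 141 at least 2-fold higher with digoxin it did so too. The exception was RBL1, which encodes the retinoblastoma-like protein p107, with a mean of 7.31 with rotenone, 8.35 with digoxin and 7.98 with DMSO. The DMSO arrays served here only as a background level and were not tested.

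**Figure D1:**
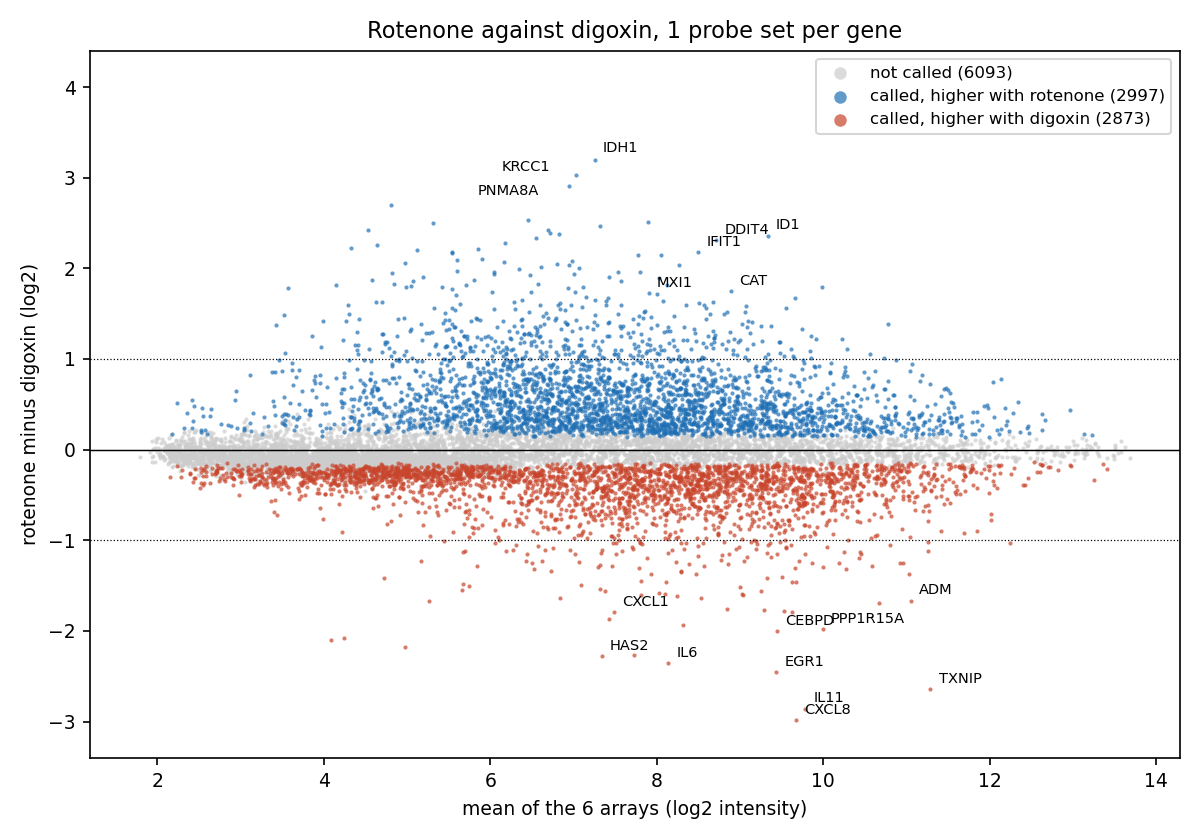
Difference between the rotenone and digoxin means (vertical axis, log2, positive where rotenone is higher) against the mean log2 intensity of the 6 arrays (horizontal axis), 1 point per gene for 11963 genes, with dotted lines at 2-fold. Blue points are the 2997 genes called higher with rotenone, red points the 2873 called higher with digoxin and grey points the 6093 not called, and the named genes at the top and bottom are those described in the text.

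Many called differences were small. The median size of a called difference was 0.40 and the median SE over all genes 0.07. The 95% interval of the difference lay within 1.5-fold either way for 9039 genes (75.6%), 3075 of them called, and within 1.2-fold for 2700. For 5964 genes that were not called the interval excluded a difference in intensity beyond 1.5-fold. With dim genes left out 4973 genes had an interval within 1.5-fold, so many of the 9039 were dim. A narrow interval of a dim gene may reflect a signal near the floor and does not show equal transcript levels. Arrays of the groups did not overlap for 6949 genes (58.1%). Among dim genes 27.1% were called, and among the others 63.7%. The split between directions depends on how arrays are scaled. The median difference was -0.05, and subtracting from each array its own median moved that to -0.22. Under that centring 8385 genes were called, 2036 higher with rotenone and 6349 higher with digoxin, so that 24.3% instead of 51.1% of calls were higher with rotenone. Differences below are on the deposited scale, and small ones are to be read against that shift. Counts within gene lists are to be read against the shares of all genes, 25.1% called higher with rotenone and 24% with digoxin.

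The 2 genes with the largest excess with digoxin, CXCL8 and IL11, encode secreted inflammatory mediators. CXCL8 encodes interleukin 8, a chemokine that draws neutrophils. Its log2 intensity was 8.03, 8.25 and 8.25 on the rotenone arrays, 10.99, 11.15 and 11.34 on the digoxin arrays and 7.33, 7.54 and 7.55 on the DMSO arrays. The groups were far apart, with digoxin high and rotenone a little above the vehicle, and CXCL8 was 7.93-fold higher with digoxin (log2 difference 2.99, SE 0.102, adjusted p = 1.01e-06 by limma). IL11, a cytokine of the interleukin 6 family, was at 8.26, 8.51 and 8.31 with rotenone and 11.07, 11.25 and 11.33 with digoxin, against 7.71, 8.14 and 8.17 with DMSO, a 7.24-fold difference (SE 0.0919 log2, adjusted p = 8.5e-07, limma). For IL6 itself, an acute-phase cytokine, the rotenone arrays read 7.02, 6.94 and 6.92 and the digoxin arrays 9.22, 9.41 and 9.31, while the vehicle arrays read 6.16, 6.02 and 6.15. All digoxin values again lay above all rotenone values, and the difference was 5.12-fold (SE 0.0652, adjusted p = 5.53e-07, limma). The neutrophil chemokines CXCL1 and CXCL2 were 3.46-fold and 2.59-fold higher with digoxin. IL24, 3.12-fold higher with digoxin, had means of 6.02 with rotenone, 7.66 with digoxin and 4.53 with DMSO, so that rotenone arrays lay between the other groups.

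Of 28 cytokines and chemokines measured, 13 were called higher with digoxin and 4 with rotenone, against 24% and 25.1% of all genes, and the median difference was -0.23 against -0.05 over all genes. Median centring raised the digoxin count to 21. Of the 28 members 15 were dim. Leaving dim genes out left 13, of which 9 were higher with digoxin and 4 with rotenone, with a median of -0.70. The called members on the rotenone side were IL18 (2.22-fold), an interleukin 1 family cytokine, TNFSF10 (1.66-fold), the death ligand TRAIL, CSF1 (1.63-fold), the macrophage growth factor, and IL15 (1.45-fold). IL18 was lower with digoxin (6.25, 6.25 and 6.40) than with rotenone (7.40, 7.40 and 7.54) or DMSO (7.34, 7.45 and 7.46). The cytokine list thus held members on both sides of the vehicle level. Among 20 of its promoters in the table, 8 (40%) held the NF-kB motif printed above for IL6 and CXCL1, against 2.1% of the promoters of all tested genes that had one.

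The NF-kB pathway itself moved in the same direction for most members that were called. NF-kB factors are held inactive by inhibitor proteins and induce their own inhibitors when released. Of 21 subunits and regulators measured, 12 (57.1%, against 24% of all genes) were called higher with digoxin and 6 (28.6%, against 25.1%) with rotenone. The median was -0.27. The feedback inhibitor TNFAIP3, also known as A20, was at 6.86, 6.80 and 6.79 with rotenone, 8.07, 8.15 and 8.07 with digoxin and 6.33, 6.27 and 6.32 with DMSO. It was 2.43-fold higher with digoxin (SE 0.0545, adjusted p = 2.01e-06, limma), with no overlap of arrays. The subunits REL, RELB and NFKB1 were 1.73-fold, 1.7-fold and 1.52-fold higher with digoxin, REL being dim, and the adhesion molecule ICAM1, a target of the pathway, was 1.6-fold higher. NFKBIA, the best known inhibitor, did not pass the test, with a difference of -0.01 and a 95% interval of -0.13 to 0.12. On the deposited scale this excludes a 1.2-fold difference either way, but median centring lowers every difference, that of NFKBIA included. RIPK2, IKBKB, BIRC2, TNIP2 and TRAF1 were among those higher with rotenone, by 1.17-fold (TRAF1) to 1.73-fold (RIPK2). TRAF1 was no longer called under quantile normalization (adjusted p = 0.0648), median centring (0.491) or without rotenone replicate 2 (0.0521). NFKBIZ and BIRC3 were not analysed here.

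Immediate early genes are transcription factors whose messages are made within minutes of a stimulus without new protein and are usually short-lived. EGR1 is the best known of them. It read 8.31, 8.18 and 8.14 with rotenone, 10.91, 10.36 and 10.73 with digoxin and 6.95, 6.94 and 6.69 with DMSO, 3 separate levels of which digoxin was the highest. The digoxin excess over rotenone was 5.48-fold (log2 difference 2.45, 95% interval 2.15 to 2.76, adjusted p = 4.72e-06, limma). MAFF, a small MAF factor, had rotenone values of 9.76, 9.87 and 9.84 and digoxin values of 11.48, 11.48 and 11.58, a 3.23-fold difference. FOSL2, FOS and ATF3 were 2.33-fold, 2.19-fold and 1.81-fold higher with digoxin. FOS was dim, with values of 4.99, 5.19 and 5.12 with rotenone, 6.33, 6.12 and 6.26 with digoxin and 4.39, 4.18 and 4.22 with DMSO, so it too stood above the vehicle with both compounds. CEBPD, a factor induced by interleukin 6 signalling, was at 8.47, 8.46 and 8.41, 10.38, 10.40 and 10.56 and 8.39, 8.46 and 8.30 in the same order of groups, that is at the vehicle level with rotenone and 4.01-fold above rotenone with digoxin.

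Members of the family did not all go the same way. Of 22 immediate early factors measured, 11 (50%) were called higher with digoxin and 5 (22.7%) with rotenone (median -0.23). FOSB (1.34-fold, dim), NFIL3 (1.3-fold), FOSL1 (1.27-fold), JUND (1.23-fold) and CREM (1.16-fold) were those higher with rotenone. JUND was not called under median centring or with the mean of its probe sets (adjusted p of 0.123 and 0.266), nor CREM under 6 of the alternatives, which gave adjusted p-values of 0.0561 to 0.589. NR4A2, an orphan nuclear receptor, lay above its vehicle level of 5.53, 5.73 and 5.65 with both compounds and did not pass the test between them, but its interval of -0.36 to 0.49 allows a difference of over 1.2-fold in either direction. MYC had means of 10.36 with rotenone and 10.30 with digoxin, and its interval of -0.06 to 0.18 lies within 1.2-fold either way. Promoters with the CArG element of EGR1 made up 2 of 17 in this list (11.8%) and 1.28% of all tested genes' promoters. The cAMP response element printed for MAFF and PPP1R15A was in 10 of 121 promoters (8.26%) of genes at least 2-fold higher with digoxin, in 7 of 346 (2.02%) of those 2-fold higher with rotenone and in 3.06% overall.

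Krüppel-like factors, zinc finger regulators of growth and differentiation, were mostly on the digoxin side. All 12 were measured, and 8 (66.7%, against 24% of all genes) were called higher with digoxin and 1, KLF7 (1.5-fold), with rotenone. KLF5, KLF11 and KLF10 led, at 2.37-fold, 2.35-fold and 2.11-fold. KLF5 read 7.61, 7.61 and 7.63 with rotenone, which is its vehicle level (7.42, 7.62 and 7.52), and 8.86, 8.82 and 8.90 with digoxin. Feedback inhibitors of MAP kinases, the phosphatases and Sprouty proteins that growth factor signalling induces against itself, split evenly, with 7 of 16 called on either side. DUSP1, a nuclear phosphatase that inactivates p38 and JNK, was 2.04-fold higher with digoxin (9.73, 9.97 and 9.93 against 8.79, 8.90 and 8.86), and DUSP6, which acts on ERK, 1.48-fold. SPRY1 went the other way, with 7.42, 7.47 and 7.37 with rotenone and 5.99, 5.77 and 6.17 with digoxin against 7.59, 7.65 and 7.505 with DMSO, and was 2.73-fold higher with rotenone, as was DUSP7 by 2.47-fold. The feedback list therefore had no common direction. The receptor EGFR was 1.78-fold higher with digoxin and its ligands EREG and HBEGF 1.79-fold and 1.55-fold, while ERBB3 (dim) and ERBB2 were 1.99-fold and 1.5-fold higher with rotenone, in a list of 13 with 4 and 3 called.

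**Figure D2:**
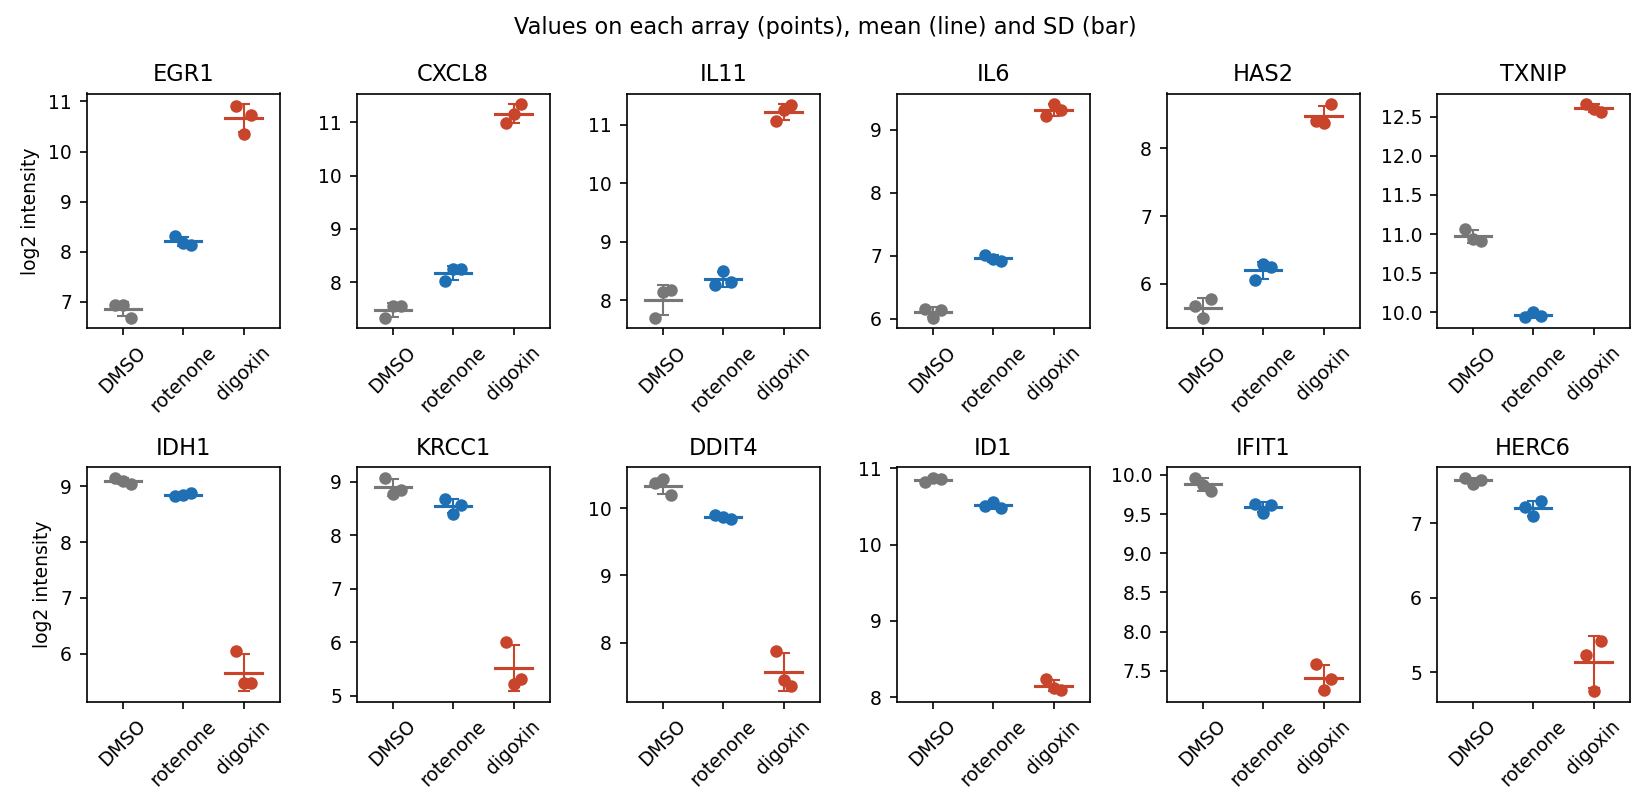
Log2 intensity (vertical axes, a separate range for each gene) of 12 genes on the 3 DMSO, 3 rotenone and 3 digoxin arrays, with points for arrays, lines for means and bars for the SD. In each panel the digoxin points lie apart from the other 6, above them in the upper row and below them in the lower row, and for TXNIP the rotenone points lie below the DMSO points.

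TXNIP had opposite positions around the vehicle. It encodes a thioredoxin-binding protein that limits glucose uptake, and its transcription follows sugar phosphates through the factor MondoA. The rotenone arrays read 9.95, 10.01 and 9.95, the DMSO arrays 11.06, 10.94 and 10.91 and the digoxin arrays 12.66, 12.60 and 12.56. The vehicle lay between the compounds without overlap, and the difference of 6.24-fold (log2 2.64, SE 0.0537, adjusted p = 4.82e-07, limma) was among the 11 over 4-fold on the digoxin side. HAS2, the synthase of hyaluronan, a sugar polymer of the matrix, was 4.85-fold higher with digoxin (8.40, 8.38 and 8.65 against 6.06, 6.29 and 6.24) and ABL2, a tyrosine kinase that acts on actin, 4.81-fold. PPP1R15A, which encodes GADD34, the subunit that directs a phosphatase to eIF2-alpha and so restores translation under stress, read 8.96, 9.13 and 8.93 with rotenone and 10.95, 11.004 and 11.01 with digoxin, 3.96-fold apart. STXBP6, SLC35F5 and DIAPH3, with folds of 4.53, 4.29 and 4.22, were dim. NUP58, a nucleoporin, and CDK5R1, an activator of the kinase CDK5, completed the 15 genes with the largest excess in that direction, at 3.82-fold and 3.66-fold.

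On the rotenone side the genes with the largest excess were low with digoxin, and for all 15 of them the vehicle mean lay nearer to rotenone. IDH1, the cytosolic isocitrate dehydrogenase that makes NADPH, had the widest gap of all. It read 8.83, 8.84 and 8.88 with rotenone, 6.04, 5.46 and 5.47 with digoxin and 9.16, 9.10 and 9.05 with DMSO. The digoxin arrays were the low group, and digoxin replicate 1 stood above the other two. The gap was 9.14-fold (log2 3.19, 95% interval 2.86 to 3.53, adjusted p = 2.58e-06, limma). KRCC1, a little-studied gene, read 8.67, 8.40 and 8.57 and 6.01, 5.23 and 5.32 with rotenone and digoxin and was 8.15-fold higher with rotenone, and PNMA8A was 7.49-fold higher (8.35, 8.41 and 8.45 against 5.53, 5.61 and 5.36). SLCO4A1, an organic anion transporter, CSTF3, a subunit of the cleavage stimulation factor in 3′ end formation, and CRYZ, a quinone reductase that also binds mRNA, were 5.77-fold, 5.69-fold and 5.53-fold higher with rotenone. ATP10D, a phospholipid flippase, MTMR4, a phosphoinositide phosphatase, ZNF512B and BRD3OS lay between 5.04-fold and 5.37-fold. SH3TC2, PPP1R3D and NXPE3, at 6.49, 5.64 and 5.36-fold, were dim.

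ID proteins block basic helix-loop-helix factors and are classic targets of BMP receptors through SMAD factors. ID1 was at 10.504, 10.56 and 10.47 with rotenone, 8.23, 8.12 and 8.10 with digoxin and 10.82, 10.87 and 10.85 with DMSO, 5.14-fold higher with rotenone (SE 0.0596, adjusted p = 4.82e-07, limma). ID2 was 2.84-fold higher, with rotenone (7.46, 7.41 and 7.41) above and digoxin (5.89, 5.78 and 6.08) below the vehicle (6.79, 6.81 and 6.71). ID3 and the inhibitory SMAD6 (dim, with another of its probe sets called in the opposite direction) were 1.74-fold and 1.97-fold higher with rotenone. The rest of the TGF-beta and BMP list did not follow them. FST, an activin antagonist, INHBA, an activin subunit, and TGFB2, a ligand, were 2.49-fold, 1.77-fold and 1.79-fold higher with digoxin, and of the 36 measured members 17 were called higher with rotenone and 10 with digoxin, a split that became 12 and 16 under median centring.

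Interferon-stimulated genes, which encode antiviral proteins and are induced by interferon signalling, were mostly higher with rotenone. Of 35 measured, 22 were called higher with rotenone (62.9%, against 25.1% of all genes) and 3 with digoxin, and the median was 0.37. Median centring gave 15 and 4 and a median of 0.20. IFIT1, which binds foreign RNA, read 9.62, 9.51 and 9.62 with rotenone, 7.59, 7.25 and 7.39 with digoxin and 9.96, 9.87 and 9.80 with DMSO, 4.52-fold higher with rotenone (SE 0.0883, adjusted p = 1.86e-06, limma). HERC6, of the HECT ubiquitin ligase family, was at 7.22, 7.10 and 7.30 and 5.24, 4.75 and 5.42 with rotenone and digoxin, 4.18-fold apart, and IFIT3 at 8.41, 8.31 and 8.39 and 6.87, 6.74 and 6.72, 3.02-fold apart. For all these genes the rotenone arrays lay slightly under the vehicle and the digoxin arrays far under it. OAS3, IFI44 and IFIT5 were 1.96-fold, 1.85-fold and 2.42-fold higher with rotenone, as were the dim genes TRIM22 and MX1 (2.46-fold and 2.21-fold) and IRF9 (1.15-fold), and the immunoproteasome subunits PSMB9 and PSMB8 of the proteasome list by 1.65-fold and 1.61-fold. SP100, ISG15 and IRF7 were higher with digoxin by 1.35-fold, 1.18-fold and 1.17-fold. Of these SP100 had other probe sets in the opposite direction, ISG15 was not called without rotenone replicate 1 (adjusted p = 0.056) or replicate 3 (0.0587), and IRF7 not without rotenone replicate 1 (0.0597). The response element printed for IFIT1 and IFIT3 was in 18 of 27 promoters of the list (66.7%) and in 2.97% of those of all tested genes.

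Targets of the hypoxia-inducible factors outside glycolysis were mostly higher with rotenone too. Under hypoxia HIF-1 binds elements with the core ACGTG and induces genes of sugar use, vessel growth and mitochondrial turnover. Of 31 such targets 22 were called higher with rotenone (71%) and 3 with digoxin, with a median of 0.34. Under median centring the counts were 16 and 4 and the median 0.17. DDIT4, or REDD1, which restrains the kinase mTORC1, was at 9.90, 9.87 and 9.84 with rotenone, 7.88, 7.45 and 7.36 with digoxin and 10.37, 10.43 and 10.20 with DMSO. This 4.95-fold gap (SE 0.126, adjusted p = 5.22e-06, limma) was the widest of the list. MXI1, an antagonist of MYC, BNIP3, a mitophagy receptor, NDRG1, a stress gene, and BHLHE40, a repressor of the clock family, were 3.31-fold, 2.61-fold, 2.58-fold and 2.51-fold higher with rotenone. BNIP3 read 11.44, 11.48 and 11.503 with rotenone, 11.53, 11.52 and 11.55 with DMSO and 10.15, 10.01 and 10.10 with digoxin, so its rotenone and vehicle levels nearly met. The collagen crosslinker LOX was 1.98-fold higher with rotenone and VEGFA, the vessel growth factor, 1.25-fold, a call that median centring removed (adjusted p = 0.101). HIF1A itself had means of 12.05 and 11.78, 1.21-fold apart, and was not called under median centring either (adjusted p = 0.146).

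The exceptions of the hypoxia list were large. ADM, the vasodilator peptide adrenomedullin, was 3.17-fold higher with digoxin, at 11.82, 11.90 and 11.95 against 10.17, 10.20 and 10.30 with rotenone and 9.57, 9.67 and 9.75 with DMSO. PLOD2, a collagen lysyl hydroxylase, was 1.93-fold higher with digoxin (10.37, 10.27 and 10.30 against 9.37, 9.28 and 9.44). The third, JMJD6, differed by 1.13-fold and lost its call under 7 alternatives. The oxygen level is not given, and CA9 was not analysed here. Of 26 promoters of the list, 16 (61.5%) held ACGTG, against 24.8% over all tested genes and 36.4% of 121 promoters of genes at least 2-fold higher with digoxin and 28.6% of 346 of those 2-fold higher with rotenone. In glycolysis and pyruvate entry 13 of 28 genes were called higher with rotenone and 4 with digoxin, with a median of 0.12 that turned to -0.05 under median centring. HK2, which phosphorylates glucose, was 1.84-fold higher with rotenone (9.88, 9.96 and 9.91 against 8.97, 9.05 and 9.08), whereas the glucose transporters SLC2A1 and SLC2A3 were 1.21-fold and 1.16-fold higher with digoxin. PGK1 and LDHA were 1.33-fold and 1.11-fold higher with rotenone.

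Genes of DNA replication were mostly higher with digoxin. Of 52 genes of the G1/S transition and replication, most of them E2F targets, 37 were called higher with digoxin (71.2%, against 24% of all genes) and 6 with rotenone, and the median was -0.50. CDC25A, the phosphatase that activates CDK2, was at 7.58, 7.70 and 7.61 with rotenone, 8.91, 8.99 and 8.999 with digoxin and 7.60, 7.83 and 7.82 with DMSO, 2.53-fold higher with digoxin (SE 0.0583, adjusted p = 2.3e-06, limma). E2F1, which drives the programme, read 7.02, 7.17 and 7.29 with rotenone, 8.29, 8.22 and 8.28 with digoxin and 7.70, 7.73 and 7.67 with DMSO, a 2.15-fold difference with the vehicle between the compounds. CDC6, a loader of the replicative helicase, also had the vehicle (8.35, 8.52 and 8.51) between rotenone (7.89, 8.001 and 8.01) and digoxin (8.87, 9.07 and 9.16). The helicase subunit MCM7 and the sliding clamp PCNA were 1.8-fold and 1.5-fold higher with digoxin. Not all members had that order: MCM6 was low with both compounds, with means of 9.59 and 9.81 against 10.48 with DMSO, and the compounds were 1.16-fold apart. ORC3, of the origin recognition complex, was the largest exception, 1.84-fold higher with rotenone (7.84, 7.66 and 7.90 against 6.83, 7.06 and 6.87). The E2F motif of the E2F1 promoter was in 10 of 45 promoters of the list (22.2%) and 0.973% of all tested.

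Replication-linked and mitotic genes did not move together. Among 23 histone genes 16 were called higher with digoxin and 2 with rotenone (median -0.35), and leaving out dim genes left 14, of which 9 and 2 were called. H3C2 was 2.84-fold and the dim H1-4 2.79-fold higher with digoxin. Histone genes of a class are nearly identical, so probe sets may read several copies. H2BC21, whose message is polyadenylated, stood well above the vehicle (4.79, 4.54 and 4.66) both with rotenone (mean 6.93) and with digoxin (mean 6.69). Its 1.18-fold excess with rotenone was lost under 7 alternatives, with adjusted p-values of 0.0742 to 0.467. In G2/M and mitosis 19 of 45 genes (42.2%) were called higher with rotenone and 13 (28.9%) with digoxin. Median centring turned the counts to 13 and 18 and the median from 0.06 to -0.11. KIF20A, a kinesin of cytokinesis, AURKA, the spindle kinase, CCNB1, the mitotic cyclin, CDC20, the activator of the anaphase ligase, and PLK1 were 1.9-fold, 1.65-fold, 1.51-fold, 1.51-fold and 1.42-fold higher with rotenone. AURKA read 11.60, 11.72 and 11.62 with rotenone, 11.16, 11.19 and 11.17 with DMSO and 10.99, 10.90 and 10.87 with digoxin, again with the vehicle between. AURKB, CKS1B, UBE2C and CDK1 had the opposite sign, at 1.94-fold, 1.86-fold, 1.63-fold and 1.51-fold higher with digoxin. AURKB was at its vehicle level with rotenone (9.22, 9.32 and 9.33 against 9.25, 9.28 and 9.23) and high with digoxin (10.23, 10.31 and 10.20). The arrays hold no count of cells in each phase, so a change in the share of cells in a phase and a change in transcript per cell cannot be told apart.

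Cyclin D genes, inhibitors of the cycle and p53 targets were measured beside these replication genes. Of 24 D cyclins, inhibitors and p53 targets, 12 were called higher with digoxin and 4 with rotenone (median -0.26). CDKN1A, the inhibitor p21, read 9.17, 9.22 and 9.12 with rotenone and 10.05, 9.92 and 10.04 with digoxin, 1.78-fold apart. GADD45A and GADD45B, stress sensors, were 2.59-fold and 3.46-fold higher with digoxin. GADD45A was at 10.33, 10.37 and 10.33, 11.69, 11.72 and 11.73 and 10.27, 10.21 and 10.20 with rotenone, digoxin and DMSO, so only digoxin stood off. CDKN1B, the inhibitor p27, was 1.31-fold higher with rotenone. CCND1 missed the threshold (difference 0.15, interval 0.02 to 0.28). Among 28 genes of the BCL2 family and death receptors 11 (39.3%) were higher with digoxin and 9 (32.1%) with rotenone, and 16 and 6 under median centring. The differences ran from -1.09 to 1.39. CFLAR (2.13-fold, with 2 of its 10 other probe sets called in the opposite direction), XIAP (dim, 2.02-fold) and MCL1 (1.66-fold) were among those higher with digoxin. BIK and CASP9, at 1.63-fold and 1.58-fold, were among those higher with rotenone. These members do not stand for survival or death genes as classes, since the list was not divided by function.

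**Figure D3:**
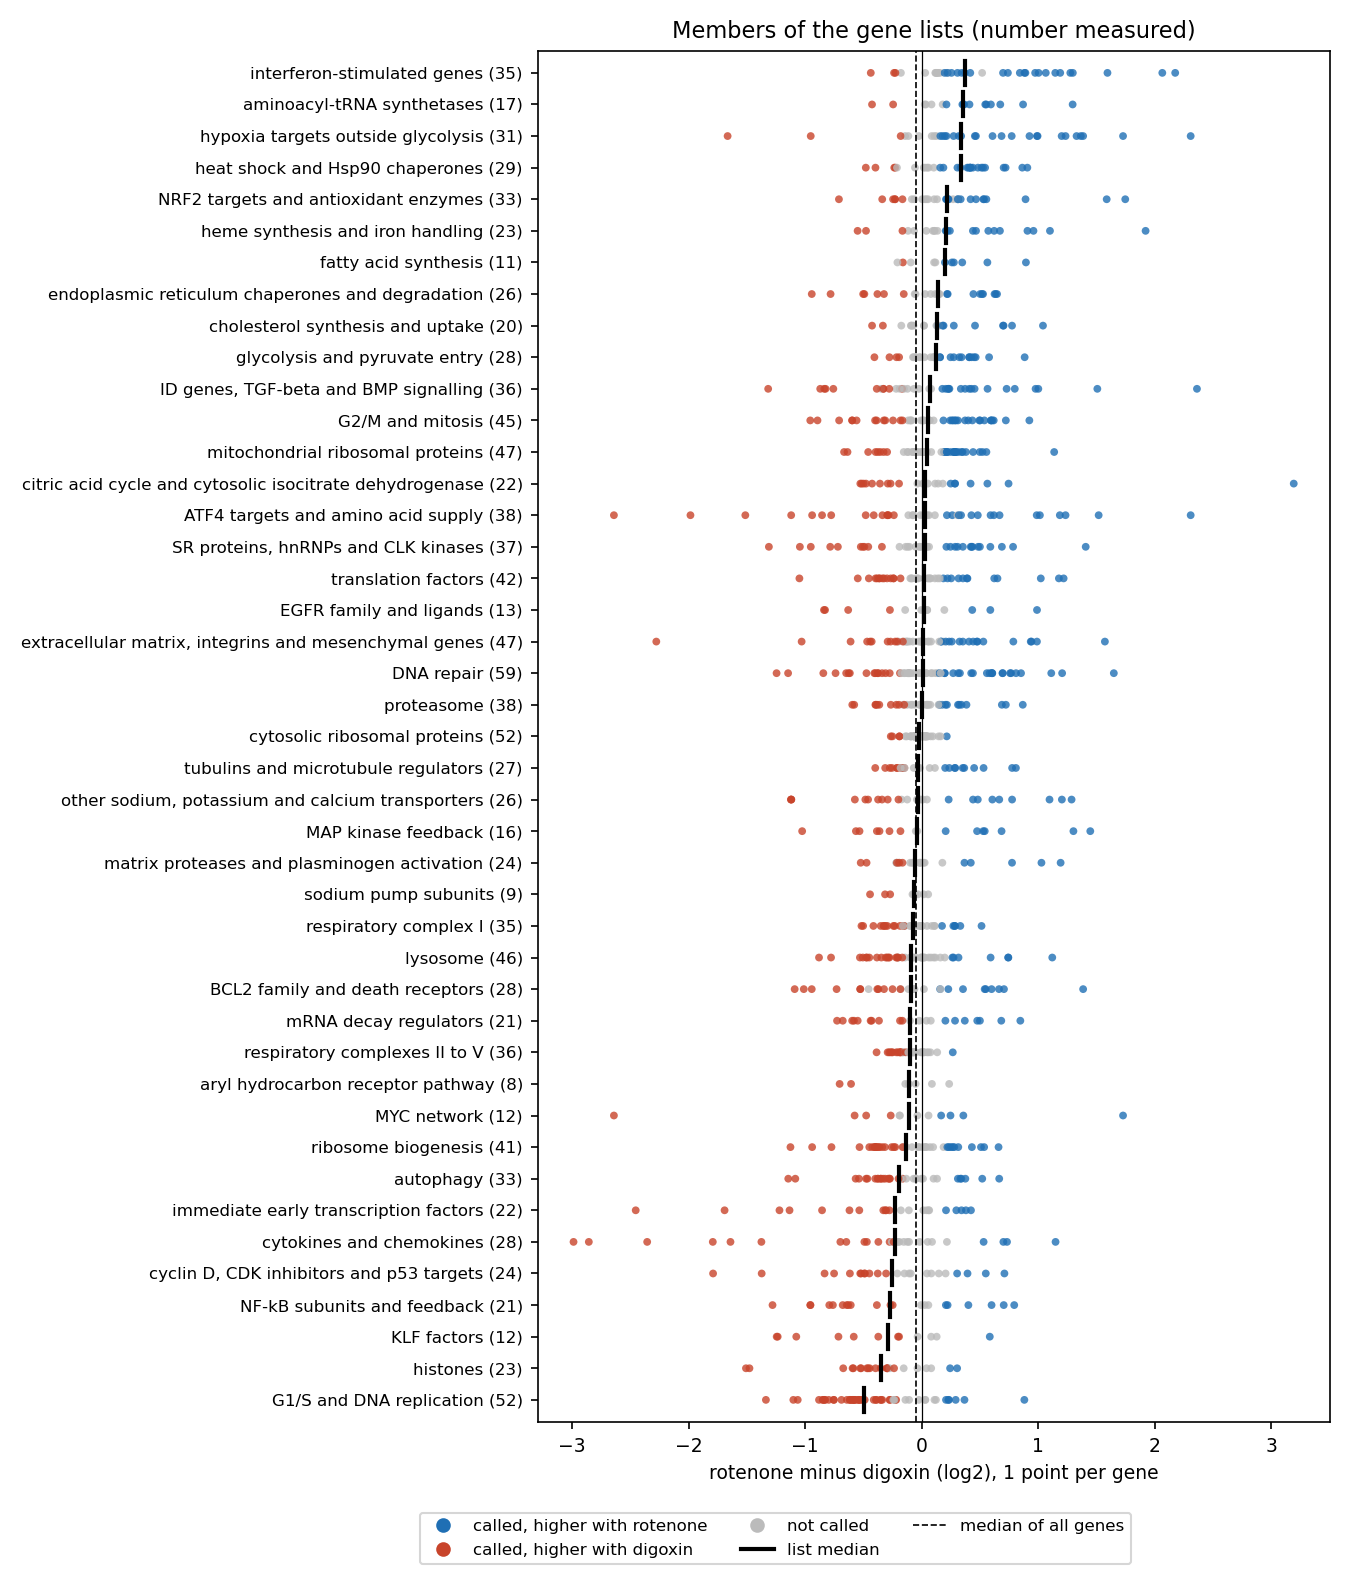
Rotenone minus digoxin difference (horizontal axis, log2) of every measured gene of each list, 1 point per gene, with lists ordered by their median (black bar) and the number measured in brackets. Points are blue where called higher with rotenone, red where called higher with digoxin and grey otherwise, and the dashed line is the median of all genes, -0.05; list medians run from 0.37 for interferon-stimulated genes to -0.50 for G1/S and DNA replication.

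Heat shock chaperones were mostly higher with rotenone. The study's title concerns Hsp90, the chaperone that matures kinases and receptors. Of 29 heat shock and Hsp90 chaperones and co-chaperones 18 were called higher with rotenone and 4 with digoxin, with a median of 0.33. Under median centring the counts were 15 and 7 and the median 0.16. HSPB1, the small heat shock protein Hsp27, was at 10.67, 10.83 and 10.67 with rotenone and 9.76, 9.81 and 9.88 with digoxin, 1.87-fold apart, with the vehicle at 10.58, 10.58 and 10.63. DNAJA1, a partner of Hsp70, HSPH1, a nucleotide exchange factor, and HSPD1, the mitochondrial chaperonin, were 1.82-fold, 1.65-fold and 1.44-fold higher with rotenone. HSP90AB1, the constitutive cytosolic Hsp90, read 12.15, 12.18 and 12.18 with rotenone, 11.66, 11.75 and 11.66 with digoxin and 12.09, 12.06 and 12.06 with DMSO, a 1.4-fold difference, and HSP90AA1 was 1.31-fold higher. FKBP5, a co-chaperone of steroid receptors, was dim and 1.39-fold higher with digoxin. HSPA4 was called higher with digoxin (1.17-fold), but with the mean of its probe sets the sign turned. HSPA8 and HSPA1A were not analysed here. In the endoplasmic reticulum 9 of 26 genes were higher with rotenone, among them the chaperone HSPA5 (1.43-fold), and 7 higher with digoxin, among them the co-chaperones DNAJC3 (1.92-fold) and DNAJB9 (1.72-fold), and the list median of 0.14 turned to -0.03 under median centring.

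Enzymes that charge tRNA with amino acids were mostly higher with rotenone as well. Of 17 measured, 11 were called higher with rotenone and 2, AIMP1 and VARS1, with digoxin, with a median of 0.36. EPRS1, the enzyme for glutamate and proline, read 9.54, 9.44 and 9.60 with rotenone, 8.11, 8.34 and 8.25 with digoxin and 9.75, 9.78 and 9.71 with DMSO and was 2.45-fold higher with rotenone, and CARS1, NARS1 and WARS1 were 1.83-fold, 1.6-fold and 1.51-fold higher. Many of these are targets of ATF4, the factor of the amino acid and stress response. Yet the wider list of ATF4 targets and amino acid supply split evenly, with 15 of 38 higher with rotenone and 14 with digoxin, and 11 and 16 under median centring. XPOT, the tRNA exporter, SHMT2 of mitochondrial serine use, ASNS, which makes asparagine, and TRIB3 were 2.86-fold, 2.27-fold, 2.02-fold and 1.98-fold higher with rotenone. ASNS was low with digoxin (9.19, 9.43 and 9.42) and slightly under the vehicle with rotenone (10.34, 10.36 and 10.38 against 10.66, 10.66 and 10.55). CTH, which makes cysteine, SLC38A2, a sodium-coupled amino acid transporter, GDF15, a stress hormone, and SLC3A2, a transporter chain, were 2.85-fold, 2.17-fold, 1.92-fold and 1.71-fold higher with digoxin. CTH lay below the vehicle (8.68, 8.90 and 8.69) with rotenone (8.19, 8.25 and 8.30) and above it with digoxin (9.66, 9.81 and 9.81). ATF4 and DDIT3 did not pass the test, with intervals of -0.07 to 0.20 and -0.29 to 0.13.

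The sodium pump genes analysed here differed little. Of 9 sodium pump genes measured, 3 (33.3%, against 24% of all genes) were called higher with digoxin and 0 with rotenone. They were the beta subunits that guide the pump to the membrane. ATP1B1 read 11.09, 11.10 and 11.04 with rotenone, 11.56, 11.51 and 11.49 with digoxin and 11.31, 11.28 and 11.30 with DMSO, 1.36-fold apart with the vehicle between. ATP1B3 was 1.24-fold and the dim ATP1B2 1.21-fold higher with digoxin, and ATP1B2 lost its call without rotenone replicate 1 (adjusted p = 0.0562). Other transporters of sodium, potassium and calcium differed more, with 9 of 26 higher with rotenone and 10 with digoxin. The phosphate carrier SLC20A2, the taurine carrier SLC6A6 (dim) and SLC38A2 were 2.18-fold, 2.17-fold and 2.17-fold higher with digoxin, and all use the sodium gradient. SLC5A3, which imports inositol with sodium, was 2.3-fold higher with rotenone, as were the calcium pump ATP2B4 (2.14-fold) and the dim channel TRPC1 (2.44-fold).

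Differences of complex I genes were small in size, but 54.3% of the genes were called, against 49.1% of all genes. Of 35 subunits and assembly factors 13 (37.1%, against 24% of all genes) were called higher with digoxin and 6 (17.1%, against 25.1%) with rotenone. The differences ran from -0.52 to 0.51. Under median centring those counts were 24 and 1. NDUFS1, the largest subunit, was at 8.81, 8.90 and 8.86 with rotenone, 9.29, 9.40 and 9.38 with digoxin and 8.90, 8.90 and 8.92 with DMSO, 1.42-fold apart, and the assembly factor ECSIT was 1.43-fold higher with digoxin. NDUFA8 was 1.43-fold higher with rotenone. NDUFV1, which binds NADH, did not pass the test (difference -0.16, interval -0.30 to -0.02) but did under 4 alternatives. Of 36 genes of complexes II to V 13 (36.1%) were higher with digoxin and 1 (2.78%), ATP5F1A, with rotenone. The former count depended on single arrays, with 5 without rotenone replicate 1, 4 without rotenone replicate 3 and 8 without digoxin replicate 3 or under quantile normalization. Median centring moved it the other way, to 31, and ATP5F1A lost its call under median centring (adjusted p = 0.12). The list's differences ran from -0.39 to 0.27. Mitochondrial ribosomal proteins had 21 of 47 (44.7%) higher with rotenone and 8 (17%) with digoxin, counts that became 8 and 21 under median centring. MRPL34 was the widest, 2.2-fold higher with rotenone. Tubulin and microtubule genes, the other target of rotenone, divided 10 to 10 among 27. That is 37% each way, against 25.1% and 24% of all genes. The digoxin count fell to 4 without rotenone replicate 1, 6 without replicate 2 and 5 without replicate 3. Under median centring 5 were higher with rotenone and 15 with digoxin. TUBA1B was 1.16-fold and TUBB 1.13-fold higher with digoxin, the latter not without rotenone replicate 1 or 3 (adjusted p of 0.051 and 0.0704) or with the mean of its probe sets (0.292), another of which was called higher with rotenone by 0.20. Tubulin copies are so alike that a probe set may read several. MAP1B and the tubulin folding cofactor TBCC were 1.71-fold and 1.75-fold higher with rotenone.

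Enzymes against oxidants and of heme synthesis were among the large differences. CAT, or catalase, which breaks down hydrogen peroxide, read 9.75, 9.80 and 9.74 with rotenone, 8.13, 7.94 and 7.99 with digoxin and 10.20, 10.12 and 10.12 with DMSO, 3.36-fold higher with rotenone (SE 0.0639, adjusted p = 1.14e-06, limma). AKR1C3, a ketosteroid reductase, was 3-fold and GSR, glutathione reductase, 1.85-fold higher with rotenone. HMOX1, heme oxygenase, was 1.38-fold higher with rotenone, at 6.63, 6.71 and 6.80 against 6.08, 6.35 and 6.31. Over the 33 NRF2 targets and antioxidant enzymes 16 were higher with rotenone and 6 with digoxin (median 0.22). Under median centring the counts were 8 and 8, and the digoxin count fell to 3 without rotenone replicate 1 or digoxin replicate 1. NQO1 and SLC7A11, standard targets of NRF2, did not pass the test (adjusted p of 0.08 and 0.0811). In heme synthesis and iron handling 13 of 23 genes were higher with rotenone and 3 with digoxin, and 9 and 5 under median centring. ALAD, the second enzyme of the pathway, was 3.79-fold higher (7.46, 7.47 and 7.38 against 5.79, 5.30 and 5.46, vehicle 7.57, 7.504 and 7.52), PPOX 2.14-fold and the first enzyme, ALAS1, 1.88-fold, ALAS1 being above its vehicle level (8.47, 8.502 and 8.45) with rotenone (8.98, 9.04 and 8.98) and below it with digoxin (8.03, 8.07 and 8.18). CYP1A1, which the aryl hydrocarbon receptor induces, was 1.52-fold higher with digoxin, with means of 6.13, 6.74 and 5.25 with rotenone, digoxin and DMSO, and TIPARP was the other of 8 genes of that pathway called, 6 of which were higher with digoxin under median centring.

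Autophagy and lysosome genes bear on the chaperone-mediated autophagy of the study's title. Autophagy genes leaned to digoxin, and lysosome genes lay nearer to the shares over all genes. In autophagy 18 of 33 genes (54.5%, against 24% of all genes) were higher with digoxin and 6 (18.2%, against 25.1%) with rotenone. The median was -0.20, and the counts were 22 and 3 under median centring. ATG12, a ubiquitin-like conjugate of the forming autophagosome, was at 8.81, 8.59 and 8.86 with rotenone and 9.82, 9.97 and 9.92 with digoxin, 2.21-fold apart, and GABARAPL1, which coats its membrane, was 2.12-fold higher with digoxin. PIK3R4, of the lipid kinase that starts the process, was 1.59-fold higher with rotenone. Of 46 lysosomal genes 17 (37%) were higher with digoxin and 7 (15.2%) with rotenone, and 27 and 4 under median centring. In all 52.2% of them were called, against 49.1% of all genes, and their median was -0.09 against -0.05. ATP6V1D of the proton pump and the cholesterol exporter NPC1 were 1.84-fold and 1.71-fold higher with digoxin, and LIPA, the lysosomal lipase, 2.17-fold higher with rotenone (9.25, 9.21 and 9.24 against 8.10, 8.17 and 8.07). LAMP2, whose A form is the receptor of chaperone-mediated autophagy, did not pass the test (interval -0.06 to 0.27). In cholesterol synthesis 9 of 20 genes were higher with rotenone and 2 with digoxin, led by DHCR7 (2.06-fold), but the median of 0.13 turned to -0.04 under median centring, and quantile normalization gave 7 and 5. In fatty acid synthesis the counts were 6 and 1 of 11, led by the desaturase SCD (1.86-fold), which was not called with the mean of its probe sets (adjusted p = 0.102), and under median centring 3 and 3.

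Matrix and protease genes had no common direction. PLAT and PLAU, the plasminogen activators, were 2.28-fold and 2.04-fold higher with rotenone, PLAU at 10.08, 10.21 and 10.16 against 9.20, 9.12 and 9.06 and a vehicle of 10.12, 10.12 and 10.12, in a list of 24 with 5 called either way. That is 20.8% each way, below the 25.1% and 24% of all genes. Under median centring 4 of the 24 were higher with rotenone and 14 with digoxin, and without rotenone replicate 1 the digoxin count was 2. MMP1, the interstitial collagenase, stood above the vehicle (7.64, 7.68 and 7.87) with both compounds (8.60, 8.87 and 8.82 with rotenone, 8.82, 8.94 and 9.11 with digoxin), and the compounds were not told apart (interval -0.42 to 0.04), although median centring called it higher with digoxin (adjusted p = 0.013). COL6A3, a collagen chain, was 2.97-fold higher with rotenone and CCN1, a matrix signal that responds to YAP and serum factors, 2.04-fold higher with digoxin. Of 47 matrix and mesenchymal genes 17 (36.2%) were higher with rotenone and 11 (23.4%) with digoxin, and 10 and 18 under median centring.

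Cytosolic ribosomal proteins were mostly near equal in intensity on the deposited scale, while ribosome biogenesis genes and translation factors differed more. Of the 73 cytosolic ribosomal proteins listed 52 were measured, and 47 of these were not called. Differences over the 52 ran from -0.27 to 0.21. In this list 4 were called higher with digoxin and 1 with rotenone. Median centring called 44 higher with digoxin, and a trended robust prior 13, with 4 higher with rotenone. The median of these genes lay between 12.95 and 13.05 on every rotenone and digoxin array. That is near 13.75, the highest value in the data. Whether such bright signals still follow transcript levels was not tested, so near-equal intensities do not show equal transcript levels. Of 41 ribosome biogenesis genes 19 were higher with digoxin and 10 with rotenone, with DDX10 the widest (2.18-fold higher with digoxin), and under median centring 26 and 4. Of 42 translation factors 14 (33.3%) were called higher with digoxin and 12 (28.6%) with rotenone, and 22 and 9 under median centring. Among them were EIF5 and EIF2B3, 2.33-fold and 2.26-fold higher with rotenone, and EIF1B, 2.07-fold higher with digoxin. EIF5 read 10.89, 10.73 and 10.87 and 9.60, 9.71 and 9.53, and 4 of its 4 other probe sets were called in the same direction.

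RNA processing genes led to a further difference, within genes. CLK4 and CLK1, kinases that phosphorylate splicing factors, were 2.48-fold and 1.93-fold higher with digoxin, and the splicing factor SRSF6 2.65-fold higher with rotenone. In the list of 37 SR proteins, hnRNPs and CLK kinases 14 (37.8%) were called higher with rotenone and 10 (27%) with digoxin. The counts were 8 and 10 with the mean of probe sets and 11 and 19 under median centring. Probe sets of a gene read different stretches of its transcripts, and they did not always give the same sign. This comparison was chosen after the data were seen. Of 1676 genes with at least 2 called probe sets, 232 (13.8%) had called probe sets in opposite directions, and 147 did when dim probe sets were left out. For 27 genes each side differed by at least 0.5, and for 1, EDRF1, by at least 1.

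HNRNPD, an RNA-binding protein that marks messages for decay, is the clearest case among RNA-binding proteins. One of its probe sets read 9.17, 9.02 and 9.12 with rotenone and 8.16, 8.11 and 8.05 with digoxin. Another read 6.61, 6.61 and 6.81 with rotenone and 8.66, 8.75 and 8.75 with digoxin, against a DMSO mean of 7.27. The first was thus higher with rotenone by 0.997 (SE 0.0642) and the second higher with digoxin by 2.04 (SE 0.0728), and neither set of arrays overlapped. SFPQ, a splicing and transcription factor, had one probe set higher with rotenone by 0.85 and another higher with digoxin by 1.39. PAPOLA, the poly(A) polymerase, showed the same (0.81 and 1.42), as did SRSF7 (1.07 and 0.69), HNRNPA3 (0.74 and 0.61) and CD44 (0.53 and 0.91). The ratio of probe sets was tested too, on the same arrays and after this pattern was seen. A ratio also changes where both probe sets move the same way by unequal amounts, so it does not count opposite directions. The ratio of a gene's 2 brightest probe sets differed between the compounds for 1108 of 4310 genes (25.7%), for 659 of the 2307 (28.6%) with both probe sets not dim, and by 2-fold or more for 80 of these. Which transcript forms each probe set reads is not recorded in the files used here, so forms, 3′ ends and introns cannot be told apart.

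**Figure D4:**
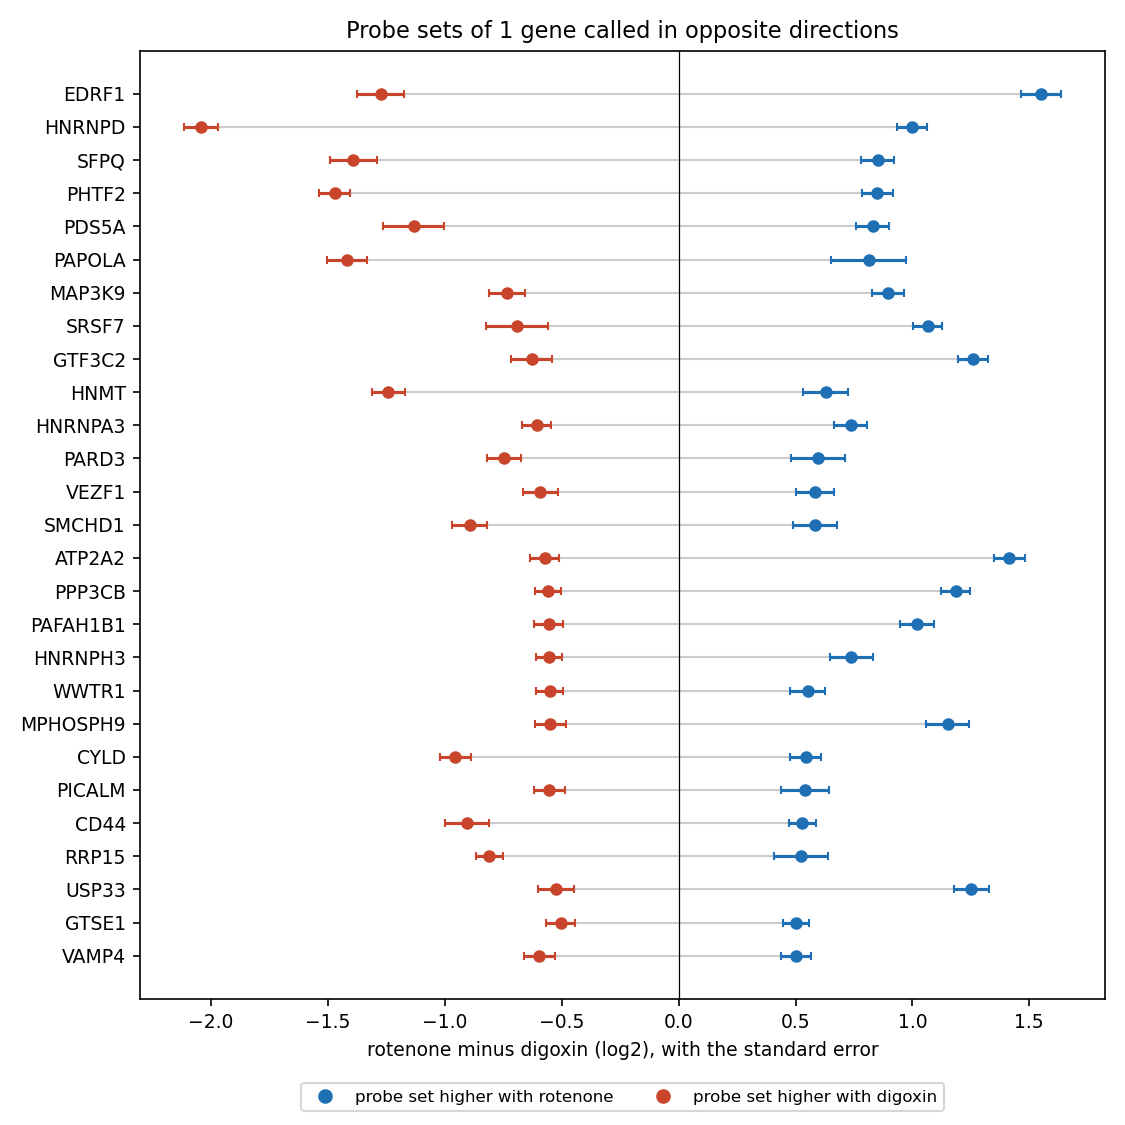
Rotenone minus digoxin difference (horizontal axis, log2, bars are standard errors) of the probe set most in excess with rotenone (blue) and the one most in excess with digoxin (red) for the 27 genes whose called probe sets differed by at least 0.5 in each direction. EDRF1 spans 1.55 to -1.27 and HNRNPD 0.997 to -2.04.

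DNA repair genes divided, with 22 of 59 (37.3%) higher with rotenone and 16 (27.1%) with digoxin, and 16 and 28 under median centring. ATM, the kinase that signals double-strand breaks, was at 7.27, 7.02 and 7.33 with rotenone and 5.48, 5.74 and 5.46 with digoxin against 7.44, 7.49 and 7.60 with DMSO, 3.13-fold higher with rotenone, but none of its 2 other probe sets was called in that direction. XRCC3 and RAD54L, of homologous recombination, were 2.37-fold and 2.21-fold higher with digoxin. In the citric acid cycle, apart from IDH1, OGDH was 1.68-fold higher with rotenone and IDH3A 1.44-fold higher with digoxin, a call lost with the mean of its probe sets (adjusted p = 0.0535). That list of 22 had 7 higher with rotenone and 9 with digoxin, and 4 and 11 under median centring. The MYC network had 4 and 4 of 12 called, and 1 and 7 under median centring. Regulators of mRNA decay had 7 of 21 higher with rotenone (4 with the mean of probe sets) and 10 with digoxin, among the latter UPF1 (1.65-fold, 8.46, 8.496 and 8.45 against 7.71, 7.76 and 7.77), which drives nonsense-mediated decay, and ZFP36 (1.46-fold), which clears cytokine messages. The proteasome had 11 of 38 higher with rotenone (28.9%) and 10 with digoxin (26.3%), near the 25.1% and 24% of all genes. Those counts became 7 and 19 under median centring.

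Some array-wide measures separated the compounds and others overlapped. The spike-in and housekeeping 3′ minus 5′ differences gave exact permutation p-values of 0.5 to 0.8 (two-sided, 3 against 3), with the dap spike-in at 2.68 ± 0.217 (SD, n = 3) with rotenone and 2.75 ± 0.135 with digoxin. The 18S rRNA control was at 10.01 and 10.08 (exact p = 0.6). By contrast, the Alu repeat control (13.48 and 13.29), the array median over genes (6.60 and 6.43) and the upper quartile (8.52 and 8.48) were higher on every rotenone array than on any digoxin array, each with an exact permutation p of 0.1, the smallest this design allows, and an adjusted p of 0.267 over the 8 measures. The part of these in the gene differences was not tested beyond the centring given above. Arrays of a group correlated at 0.998 to 0.999 with rotenone and 0.997 to 0.998 with digoxin over genes, and arrays of different compounds at 0.980 to 0.984.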

How the data were processed

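The deposited values were read as log2 intensities of Affymetrix probe sets, a base inferred from their range, 1.655 to 13.75. Per the labels' protocols, the authors extracted RNA on columns and amplified, labelled and hybridized it; their background correction, summarisation and normalization are not given here. Of 22277 probe sets 62 were controls, 1043 had several symbols in the platform annotation and 2108 none. The probe set with the highest mean over the 6 arrays stood for a gene, and 4310 genes had several.

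Differences were fitted with limma 3.58.1 in R 4.3.3 (lmFit and eBayes on the 6 arrays, 4 residual and 3.86 prior degrees of freedom), without a filter on dim genes. The comparison, its 43 gene lists and the 4 marker lists were chosen with earlier results of these data known, and lists share members. Genes named are the 15 with the largest called difference in each direction, up to 5 called members per list and direction, and a fixed set tied to the study's topic. ATF4, CCND1, CDC20, CXCL2, DDIT3, HSPD1, ICAM1, IFI44, IRF9, LDHA, MCM6, MCM7, MX1, NFKB1, NFKBIA, NQO1, NR4A2, OAS3, PCNA, PGK1, PLK1, RBL1, SLC3A2, SLC7A11 and TRIB3 were added after their values were seen. On simulated data (20 simulations, 200 of 11963 genes changed, variances shuffled among genes) 29.2% of genes changed by 0.3, 69.2% by 0.5 and 95.8% by 1 were recovered, and 4.09% of calls were false. In the real data 49.1% of genes were called, which makes the adjusted threshold less strict. The recovered shares therefore do not carry over to this comparison. Motifs were searched in RefSeq promoters of 9562 of the genes. Alternatives were all 12 arrays, median centring, quantile normalization, a replicate block, omission of dim genes, other choices of probe set, other variance priors and weights, and leaving out each array. Figures used Python 3.11.15 and matplotlib 3.10.9.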

Additional observations from a re-analysis of the deposited data

Results flagged for a closer look

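Probe sets outside the gene table also differed between the compounds. Of the 1043 probe sets annotated to several symbols 441 were called, 226 higher with rotenone and 215 with digoxin, and of the 2108 with no symbol 602 were called, 273 and 329. They were noted because they lie outside the genes the comparison used, and no gene was named from them.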

How the results depend on the processing

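Counts of called genes were within 1.5 times the 5870 under all 12 arrays in the fit (6030), quantile normalization (5844), median centring (8385), dim genes left out (5022), the mean of probe sets (5877), a trended robust prior (6036), array weights (6045) and without each array in turn (4831 to 5569, lowest without rotenone replicate 1). Median centring gave 6349 genes higher with digoxin, and 277 and 243 genes 2-fold or more higher with rotenone and digoxin. Every probe set counted on its own gave 4503 higher with digoxin, 250 of them 2-fold or more. With dim genes left out 4973 genes had an interval within 1.5-fold.

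Medians of 14 of the 43 lists changed sign under median centring (to between -0.1641 and -0.0301), 5 under quantile normalization, 4 with dim genes left out, 4 with the mean of probe sets, 3 each without digoxin replicate 3 and without rotenone replicate 2, 2 without digoxin replicate 2 and 1 without digoxin replicate 1. Among these, the deposited-scale median was beyond 0.1 in size for glycolysis (-0.0467), endoplasmic reticulum (-0.0301) and cholesterol (-0.0392) under median centring and for the MYC network (0.0588) with dim genes left out. MLX fell to -0.0028 under median centring. With the mean of probe sets the difference turned for ATP2A2 (0.31), CNOT4 (-0.23), HSPA4 (0.13), PIK3C3 (-0.15), RPL38 (0.0722) and SP100 (0.12). The cause was not tested, apart from the probe sets of a gene that disagree.

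The replicate block gave 5820 calls. Deviations of same-numbered arrays correlated at 0.0913, 0.0471 and 0.0794, under 0.1, and those of differently numbered arrays at -0.0729 to -0.00272. Each array thus correlated best with its own number, though weakly. What arrays of the same number have in common is not given and was not tested. The number of arrays limits precision. Differences of 0.3 were often missed on simulated data, but those had 200 changed genes, far fewer than the 5870 called here.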
